A study of Mus musculus with 12 samples.

Results

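Gnmt and the enzymes that surround it in the methionine cycle of the liver were followed at the transcript level in mice with and without the circadian repressor REV-ERBα. The 9 genes Gnmt, Mat1a, Ahcy, Bhmt, Cbs, Cth, Shmt1, Sardh and Pemt were chosen by their symbols, out of 38926 gene symbols in the count files. The choice was made with earlier results of these data known. All 9 passed the filter on low counts, which left 14488 genes for testing. The livers came from 12 male mice of a mixed 129Ola and C57BL6 background, 12 weeks of age, with 1 liver per library. They were kept in 12 h of light and 12 h of darkness with food always available. The 4 groups of 3 mice were wild-type and Rev-erbα-/- animals, each killed at ZT8 (8 h after lights on, in the light phase) or at ZT20 (8 h after lights off, in the dark phase). The Rev-erbα-/- allele of Nr1d1 was inherited from heterozygous pairs and is present in every cell of the body, so that the comparison of genotypes is not limited to hepatocytes.

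The methionine cycle makes and spends S-adenosylmethionine, the methyl donor of the cell. MAT1A makes it from methionine, and methyltransferases such as GNMT, which methylates glycine to sarcosine, and PEMT, which makes phosphatidylcholine, convert it into S-adenosylhomocysteine. AHCY splits the latter into adenosine and homocysteine. Homocysteine then returns to methionine through BHMT, which takes a methyl group from betaine, or leaves the cycle through CBS and CTH, which lead it to cysteine. SARDH oxidizes the sarcosine that GNMT made, and SHMT1 moves a carbon unit between serine, glycine and folate. The cycle is most active in the liver, where GNMT is known as an abundant protein that buffers the supply of S-adenosylmethionine.

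Between 17641809 and 26060192 reads per library were counted on genes, and 3 counts corresponded to 0.117 to 0.167 CPM (counts scaled to the size of each library, which was adjusted by the TMM method). The targeted gene Nr1d1 was read at 128.7, 96.2 and 75.3 CPM in the wild-type and at 63.0, 71.9 and 80.6 CPM in the Rev-erbα-/- mice at ZT8, and at 1.86 to 2.28 and 2.09 to 3.57 CPM at ZT20. Reads on this symbol were thus still counted in Rev-erbα-/- livers, and as counts are given per whole gene they cannot show which exons were read. Arntl, the clock gene that REV-ERBα represses, separated the genotypes at ZT8, with 0.448 to 0.796 CPM in wild-type and 22.7 to 25.7 CPM in Rev-erbα-/- livers. At ZT20 its levels overlapped, at 43.0 to 45.2 and 41.1 to 45.1 CPM.

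Within the wild-type mice at ZT8, mice 2 and 3 stood apart. The acute-phase transcript Saa1 was at 4972 and 6489 CPM in these livers, against 60.8 CPM in mouse 1 and 21.2 to 96.8 CPM in the other 9 livers. The summed level of all 9 acute-phase transcripts examined (Saa1, Saa2, Saa3, Orm1, Orm2, Orm3, Hp, Lcn2 and Hamp) ran from 3033 to 23715 CPM in this group and from 2635 to 3698 CPM in the other groups. Many comparisons with this group are therefore also given without mice 2 and 3, and without them the remaining mouse is assumed to vary like the other groups. The defining hepatocyte markers Alb, Ttr, Apoa1, Serpina1a and Tat were read in every liver, and at ZT8 their sum was 45863 to 67466 CPM in wild-type livers and 53946 to 79416 CPM in Rev-erbα-/- livers. At ZT20 it was 87249 to 95229 and 75551 to 85390 CPM.

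Gnmt (mm10, chromosome 17, bases 46725664 to 46729168, minus strand, protein-coding) was lowest in wild-type livers at ZT8. Its levels there were 1176.6, 956.5 and 744.1 CPM in mice 1, 2 and 3. In Rev-erbα-/- livers at ZT8 they were 1342.2, 1290.9 and 1280.3 CPM. At ZT20, wild-type livers had 1764.8, 1608.9 and 1519.7 CPM and Rev-erbα-/- livers 1528.1, 1739.6 and 1979.3 CPM. The genotypes thus did not overlap at ZT8 and overlapped at ZT20, and in each genotype all 3 mice at ZT20 were above all 3 at ZT8. Of all genes tested, 25.6% did not overlap between the genotypes at ZT8 and 22.5% at ZT20, and 42.3% did not overlap between the times in wild-type and 35.0% in Rev-erbα-/- livers. Between ZT8 and ZT20, Gnmt rose 1.70-fold in wild-type livers (log2 fold change 0.77 ± 0.14 SE, adjusted p = 0.00104, edgeR quasi-likelihood test adjusted over all genes tested). In Rev-erbα-/- livers the corresponding log2 difference was 0.42 ± 0.14 (adjusted p = 0.0545). Between genotypes, the difference at ZT8 was 0.44 ± 0.14 on the log2 scale and missed the threshold of 0.05 (adjusted p = 0.0695), and that at ZT20 was 0.10 ± 0.14 (adjusted p = 0.837). The difference of the genotype effects between the times was 0.34, with a 95% interval of -0.09 to 0.77 (adjusted p = 0.380). DESeq2 called the ZT8 difference (adjusted p = 0.0217) and the time difference in Rev-erbα-/- livers (adjusted p = 0.0232).

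The ranking of the wild-type ZT8 mice by Gnmt was the reverse of their ranking by Saa1. The same order was seen with Bhmt, Cbs, Cth, Shmt1, Sardh and Pemt, so it was not particular to Gnmt. Without mice 2 and 3, the ZT8 genotype difference of Gnmt was 0.14 on the log2 scale (adjusted p = 0.761) and the time difference in wild-type livers was 0.47 (adjusted p = 0.0630), whereas without mouse 1 the ZT8 difference was 0.61 (adjusted p = 0.00566). The part that the acute-phase state has in these differences was not tested. In bulk tissue, fewer cells of a type and less RNA per cell cannot be told apart.

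**Figure D1:**
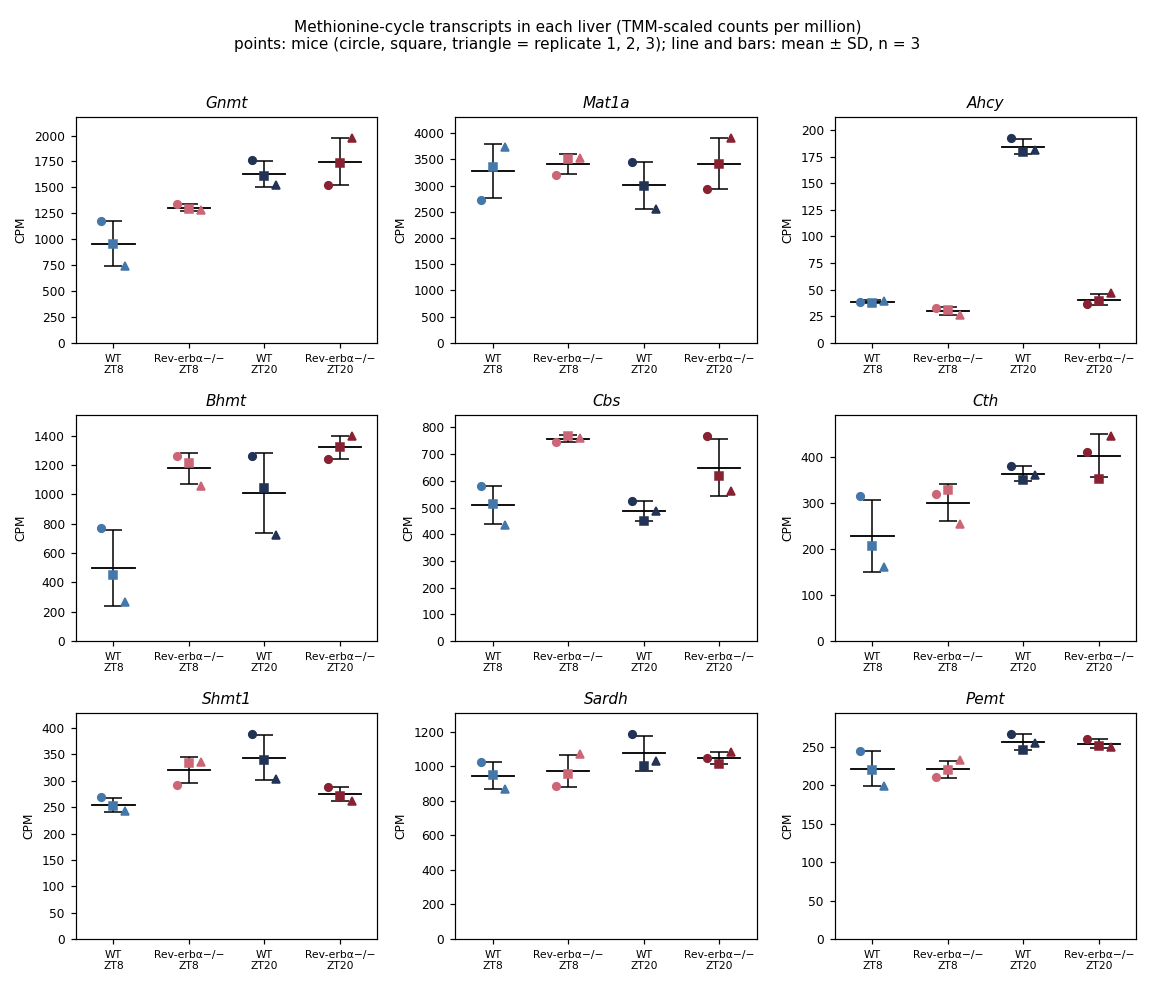
Levels of the 9 transcripts in each liver, in CPM on linear axes from 0, with 1 point per mouse (circle, square and triangle for mice 1, 2 and 3) and the mean ± SD of 3 mice per group. Ahcy stands out in wild-type livers at ZT20 (179.1 to 192.7 CPM). Gnmt, Bhmt, Cbs, Cth, Shmt1, Sardh and Pemt are lowest in wild-type mouse 3 at ZT8.

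Of the DNA before the Gnmt start site, 250 bases are shown (RefSeq start, GRCm38.p6, chr17:46729166-46729415, minus strand), because this window holds the hexamer AGGTCA, the core to which nuclear receptors such as REV-ERBα and ROR bind. The windows of Bhmt (chr13:93637759-93638008, minus strand), which holds the hexamer 3 times, and of Cbs (chr17:31637206-31637455, minus strand) are shown for comparison. Among the windows at hand, that of Cbs was the only one with the E-box CACGTG, to which CLOCK and BMAL1 bind. Capitals mark AGGTCA, read on either strand (TGACCT on the other), and CACGTG.
Gnmt: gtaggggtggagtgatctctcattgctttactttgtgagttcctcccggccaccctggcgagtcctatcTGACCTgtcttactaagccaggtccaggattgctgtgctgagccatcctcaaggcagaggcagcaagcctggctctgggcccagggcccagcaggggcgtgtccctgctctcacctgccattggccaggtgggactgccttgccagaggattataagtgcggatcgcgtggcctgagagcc
Bhmt: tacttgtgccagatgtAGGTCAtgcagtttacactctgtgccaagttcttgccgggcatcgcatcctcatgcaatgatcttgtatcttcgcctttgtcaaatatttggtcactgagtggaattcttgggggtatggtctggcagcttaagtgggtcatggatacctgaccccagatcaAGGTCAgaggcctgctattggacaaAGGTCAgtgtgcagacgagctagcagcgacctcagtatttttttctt
Cbs: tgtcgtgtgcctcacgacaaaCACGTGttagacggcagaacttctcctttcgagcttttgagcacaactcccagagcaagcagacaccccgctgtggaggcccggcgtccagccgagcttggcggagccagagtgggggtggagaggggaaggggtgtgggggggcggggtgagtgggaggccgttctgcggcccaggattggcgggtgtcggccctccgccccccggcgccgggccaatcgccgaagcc

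Windows of 300 bases (250 before and 50 after the start, both strands searched, RefSeq) were at hand for 7 of the 9 genes, 8 windows in all since Pemt has 2 starts. Mat1a and Cth had none and were not searched. AGGTCA was in 4 of the 8 (Gnmt, Bhmt, Ahcy and Sardh) and in 16.3% of all 32851 windows. CACGTG was in 1 of the 8 and in 7.15% of all windows. The inverted repeat of the glucocorticoid response element was in 1 of the 8, that of Gnmt, in the 50 bases after the start, and in 0.475% of all. TTANGTAA, bound by PAR bZIP factors, was in none of the 8 and in 2.32% of all windows. Such matches describe the letters of the windows and do not show binding.

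Mat1a, which supplies the S-adenosylmethionine that GNMT uses, did not pass the test in any comparison. Its levels were 2727.8, 3354.2 and 3736.5 CPM in wild-type and 3196.8, 3511.4 and 3521.4 CPM in Rev-erbα-/- livers at ZT8. At ZT20 they were 3455.8, 2991.4 and 2553.5 CPM in wild-type and 2933.0, 3407.8 and 3910.3 CPM in Rev-erbα-/- livers, so that all groups overlapped. The 95% interval of the genotype effect was -0.25 to 0.37 at ZT8 and -0.12 to 0.50 at ZT20 on the log2 scale. Unlike Gnmt, Mat1a was highest, within wild-type livers at ZT8, in mice 2 and 3.

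Pemt and Sardh, the methyltransferase of the phospholipid branch and the enzyme that consumes sarcosine, also passed it in none. Pemt was between 199.7 and 245.4 CPM in all 6 livers at ZT8 and between 246.7 and 267.3 CPM in all 6 livers at ZT20, with genotype differences of -0.0045 (95% interval -0.18 to 0.17) and -0.01 (-0.19 to 0.16) on the log2 scale. Its time differences were 0.21 ± 0.08 in wild-type livers (adjusted p = 0.0739) and 0.20 ± 0.08 in Rev-erbα-/- livers (adjusted p = 0.112), in both cases without overlap between the times. At ZT8, Sardh was at 865.8 to 1026.4 CPM in the wild-type group and at 888.6 to 1071.7 CPM in the knockout group, and at ZT20 it was at 1002.3 to 1188.3 CPM and 1015.8 to 1083.1 CPM. Its genotype differences were 0.04 (95% interval -0.18 to 0.26) and -0.03 (-0.26 to 0.19).

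Ahcy gave the largest difference among the 9 genes. Reads assigned to it were at 38.8, 37.2 and 39.9 CPM in wild-type and at 32.7, 31.2 and 26.0 CPM in Rev-erbα-/- livers at ZT8. At ZT20 they were at 192.7, 179.1 and 181.2 CPM in wild-type livers but at 36.2, 39.2 and 46.9 CPM in Rev-erbα-/- livers. The 3 wild-type mice at ZT20 thus lay far above the other 9. On these reads, Ahcy at ZT20 was lower by 4.52-fold in the knockout livers (-2.18 ± 0.10 on the log2 scale, adjusted p = 1.81e-09) and 1.29-fold lower at ZT8 (-0.37 ± 0.10, adjusted p = 0.0337). The genotype effects differed between the times by 1.81 ± 0.14 (adjusted p = 1.18e-06). Between ZT8 and ZT20, Ahcy rose 4.78-fold in wild-type livers (adjusted p = 5.08e-10) and 1.36-fold in Rev-erbα-/- livers (adjusted p = 0.00626). Its genotype difference at ZT8 passed the test in 6 of the 12 fits that leave out 1 mouse. Without wild-type mice 2 and 3 of ZT8, that difference was -0.38 on the log2 scale and the time difference in wild-type livers was 2.24.

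These reads do not measure the gene alone, since Ahcy (chromosome 2, bases 155059310 to 155074497, minus strand) has near-identical copies. Its transcripts hold 2794 distinct stretches of 75 bases, the read length, and 65.9% of them recur exactly in Gm4737, Gm5638 or Gm9826. Gm4737 is a single-exon gene on chromosome 16 (bases 46152985 to 46155077), whose coding part of 1296 bases differs from that of Ahcy at 4 bases. A stretch of both coding parts that contains 2 of these differences is shown (mm10, coding bases 446 to 490, chr2:155064882-155064926 and chr16:46154523-46154567, both on the minus strand), with the differing bases in capitals, because a read that covers none of these bases is the same in both.
Ahcy: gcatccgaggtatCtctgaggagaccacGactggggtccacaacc
Gm4737: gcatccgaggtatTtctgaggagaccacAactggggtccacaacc

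More reads were assigned to Gm4737 than to Ahcy in every liver. Gm4737 was at 360.3, 358.5 and 351.9 CPM in wild-type and at 321.2, 342.1 and 353.3 CPM in Rev-erbα-/- livers at ZT8, and at 580.5, 498.1 and 494.7 and at 488.0, 524.7 and 635.8 CPM at ZT20. It did not pass the test between genotypes at ZT8 (log2 difference -0.07, 95% interval -0.29 to 0.14) or ZT20 (0.07, -0.15 to 0.28), and it rose with time in both, 1.47-fold in wild-type (adjusted p = 0.000898) and 1.62-fold in Rev-erbα-/- livers (adjusted p = 0.000328). Gm9826, another copy, reached 32.4, 30.7 and 26.7 CPM in wild-type livers at ZT20 and was at 0.0556 to 0.797 CPM in the other 9 livers. It thus had the pattern of Ahcy. Gm5638 stayed at 5 counts or fewer in every liver.

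When the counts of Ahcy and its 3 copies were summed, an alternative chosen after seeing the data, the levels were 399.7, 396.6 and 392.0 CPM in wild-type and 354.2, 373.4 and 379.7 CPM in Rev-erbα-/- livers at ZT8. At ZT20 they were 805.9, 708.0 and 702.7 CPM and 525.0, 564.7 and 683.3 CPM. The genotypes did not overlap at either time, but the differences of -0.10 ± 0.10 at ZT8 (adjusted p = 0.589) and -0.32 ± 0.10 at ZT20 (adjusted p = 0.108) no longer passed the test, nor did the difference of the genotype effects between the times (0.22 ± 0.14, adjusted p = 0.428). The rise with time passed it in both genotypes, with log2 fold changes of 0.90 ± 0.10 in wild-type (adjusted p = 1.16e-05) and 0.68 ± 0.10 in Rev-erbα-/- livers (adjusted p = 0.00035).

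The wild-type livers at ZT20 also stood apart in other genes. In 56 genes, 20 higher and 36 lower, all 3 of these livers were more than 2-fold away from all 9 others, against 48 genes for wild-type livers at ZT8, 20 for Rev-erbα-/- livers at ZT20 and 8 for Rev-erbα-/- livers at ZT8. Named after their values were seen, Rps3a1, a ribosomal protein gene with many copies, was at 0.840 to 1.02 CPM in these 3 livers and at 23.0 to 31.6 CPM in the others, and Rps3a2 was at 0 counts in these 3 livers and at 4.02 to 5.42 CPM in the others. Whether the pattern of Ahcy came from the gene, from how reads were assigned among the copies or from the animals of this group was not tested, and with 1 group of mice at that genotype and time these cannot be told apart.

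**Figure D2:**
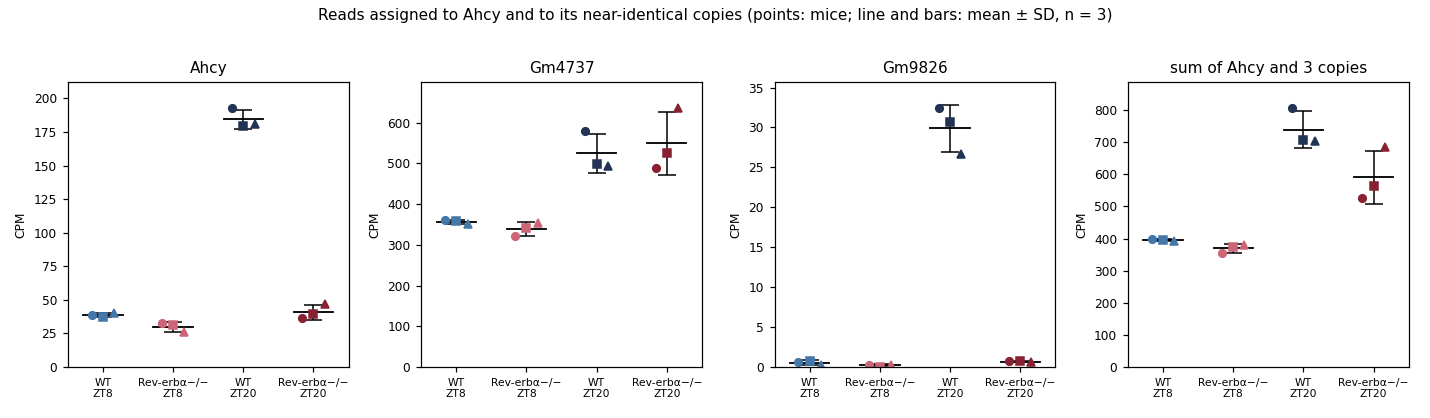
Reads assigned to Ahcy, to Gm4737 and to Gm9826, and the sum of Ahcy with its 3 copies, in CPM on linear axes from 0, with 1 point per mouse and the mean ± SD of 3 mice per group. Ahcy and Gm9826 are high only in wild-type livers at ZT20, Gm4737 is higher at ZT20 in both genotypes, and the sum is higher at ZT20 in both genotypes, with all wild-type livers at ZT20 (702.7 CPM and above) over the Rev-erbα-/- livers (up to 683.3 CPM).

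Bhmt, which regenerates methionine from homocysteine and betaine, had the largest genotype difference of the genes other than Ahcy, but also the widest spread. It was at 774.0, 449.7 and 267.5 CPM in wild-type and at 1258.8, 1212.3 and 1059.9 CPM in Rev-erbα-/- livers at ZT8, so that the genotypes did not overlap. At ZT20, wild-type livers had 1262.8, 1043.0 and 724.7 CPM and Rev-erbα-/- livers 1238.5, 1321.2 and 1399.6 CPM, with overlap. The level was 2.37-fold higher in Rev-erbα-/- livers at ZT8, which missed the threshold (log2 difference 1.24 ± 0.34, adjusted p = 0.0538, and 0.00656 with DESeq2), and at ZT20 the difference was 0.39 ± 0.33 (adjusted p = 0.695). Bhmt rose 2.03-fold with time in wild-type livers (adjusted p = 0.0492), although the times overlapped, while in Rev-erbα-/- livers the log2 difference was 0.17 ± 0.33 (adjusted p = 0.792).

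As with Gnmt, Cbs, Cth, Shmt1, Sardh and Pemt, the wild-type livers at ZT8 were ordered against Saa1. Without mice 2 and 3, the ZT8 genotype difference of Bhmt was 0.60 on the log2 scale (adjusted p = 0.292) and the time difference in wild-type livers was 0.38 (adjusted p = 0.369). Of the 75-base stretches of Bhmt, 21.6% recur in Bhmt-ps1, Gm15622 or Gm5096, and 3.25% of its exons overlap Gm15622. Gm5096 was at 220.3, 128.4 and 83.4 CPM in wild-type and at 288.4, 334.2 and 317.7 CPM in Rev-erbα-/- livers at ZT8, a log2 difference of 1.12 ± 0.36 that did not pass the test (adjusted p = 0.101). With Bhmt, Bhmt-ps1 and Gm5096 summed, the ZT8 difference was 1.22 ± 0.34 (adjusted p = 0.0558), so that the copies moved this value little. The time difference of the sum in wild-type livers was 1.00 ± 0.33 and missed the threshold (adjusted p = 0.0511).

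Cbs, the first enzyme on the way from homocysteine to cysteine, was higher in Rev-erbα-/- livers. At ZT8 it was at 579.1, 515.0 and 434.1 CPM in wild-type and at 743.7, 768.9 and 761.0 CPM in Rev-erbα-/- livers, and at ZT20 at 525.1, 448.2 and 486.0 and at 768.9, 617.2 and 561.6 CPM. The genotypes did not overlap at either time. Cbs was 1.49-fold higher at ZT8 (log2 fold change 0.57 ± 0.12, adjusted p = 0.0102), and the difference at ZT20 was 0.42 ± 0.12 (adjusted p = 0.0889, and 0.0285 with DESeq2). The effects at the 2 times differed by 0.16, with a 95% interval of -0.22 to 0.53. Time differences were -0.07 ± 0.12 in wild-type (adjusted p = 0.740) and -0.22 ± 0.12 in Rev-erbα-/- livers (adjusted p = 0.242). Without wild-type mice 2 and 3, the ZT8 difference of Cbs was 0.38, and that at ZT20 was 0.42. These mice belong to neither group compared at ZT20, but they enter the spread that the fit shares over all samples.

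Cth, the next enzyme on this path, passed the test only between the times in wild-type livers. It was at 315.0, 207.4 and 161.7 CPM in wild-type and at 319.9, 327.4 and 253.8 CPM in Rev-erbα-/- livers at ZT8, and at 380.3, 349.2 and 360.1 and at 409.4, 352.4 and 445.7 CPM at ZT20. The genotypes overlapped at both times, with differences of 0.40 ± 0.20 (adjusted p = 0.265) and 0.15 ± 0.20 (adjusted p = 0.831), and the times did not overlap in either genotype. Cth rose 1.59-fold with time in wild-type livers (adjusted p = 0.0297), and the log2 difference in Rev-erbα-/- livers was 0.42 ± 0.20 (adjusted p = 0.185). Without wild-type mice 2 and 3, the ZT8 genotype difference of Cth was -0.07 (adjusted p = 0.900) and the time difference in wild-type livers was 0.20 (adjusted p = 0.478).

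**Figure D3:**
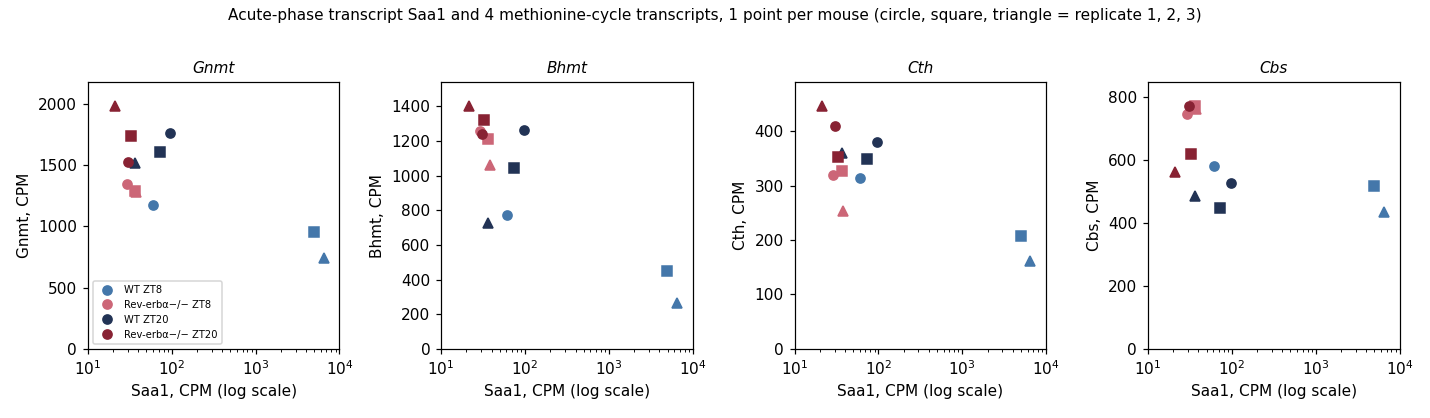
Saa1 (horizontal, CPM, log scale) against Gnmt, Bhmt, Cth and Cbs (vertical, CPM, linear from 0), with 1 point per mouse, colours for the 4 groups and circle, square and triangle for mice 1, 2 and 3. Wild-type mice 2 and 3 at ZT8 lie far to the right, at 4972 and 6489 CPM of Saa1, and have the lowest levels of Gnmt, Bhmt and Cth.

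Shmt1, which feeds carbon units from serine into the folate pool, was the gene without close copies in which the genotype effect differed between the times. It was at 268.9, 252.0 and 243.3 CPM in wild-type and at 292.9, 334.1 and 336.5 CPM in Rev-erbα-/- livers at ZT8. At ZT20 the order of the genotypes was the opposite, with 389.1, 340.1 and 302.9 CPM in wild-type and 288.9, 272.1 and 262.0 CPM in Rev-erbα-/- livers, and the genotypes did not overlap at either time. Shmt1 was 1.26-fold higher in Rev-erbα-/- livers at ZT8 (log2 fold change 0.33 ± 0.10, adjusted p = 0.0434), whereas the difference at ZT20 was -0.33 ± 0.10 (adjusted p = 0.0841, and 0.0260 with DESeq2). The difference of these effects, 0.66 ± 0.14, passed the test (adjusted p = 0.00882). Shmt1 rose 1.35-fold with time in wild-type livers (adjusted p = 0.00354), and its time difference in Rev-erbα-/- livers was -0.23 ± 0.10 (adjusted p = 0.121). The time difference in wild-type livers was 0.43 on the log2 scale, and 0.35 with wild-type mice 2 and 3 of ZT8 left out. Without wild-type mice 2 and 3, the difference of the genotype effects was 0.57 (adjusted p = 0.0952) and the ZT8 effect 0.25 (adjusted p = 0.478). Of the exons of Shmt1, 4.74% overlap Smcr8, and the counting ignored the strand.

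**Figure D4:**
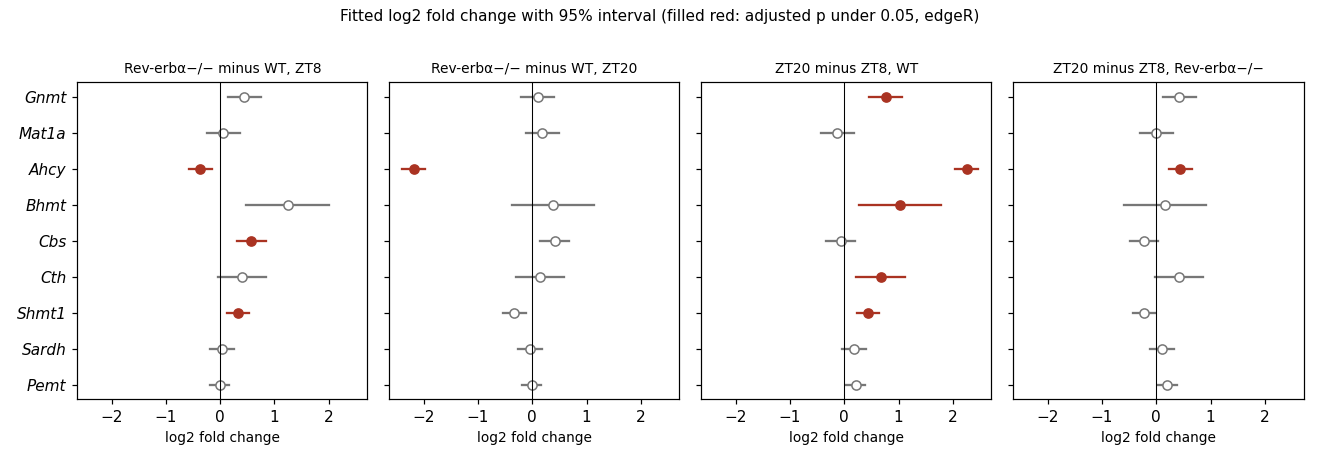
Fitted log2 fold changes (points) with 95% intervals (lines) of the 9 genes, for the genotype at ZT8 and ZT20 and for the time of day in wild-type and Rev-erbα-/- livers, with filled red points for an adjusted p under 0.05. Ahcy has the largest changes, at -2.18 and 2.26, and all 5 genes called for time in wild-type livers are higher at ZT20.

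Counted over the 9 genes, 3 passed the test between genotypes at ZT8, Cbs and Shmt1 higher and Ahcy lower in Rev-erbα-/- livers, where 8.45% of all genes tested passed. Without wild-type mice 2 and 3, edgeR and DESeq2 each called 0 of the 9, with 3 at an unadjusted p under 0.05 by either tool, and edgeR called 2.29% of all genes. At ZT20, 1 of the 9 passed (Ahcy, lower), where 3.63% of all genes did and 1.54% were lower. The genotype effect differed between the times in 2 of the 9, Ahcy and Shmt1, both with the higher effect at ZT8, and in 5.88% of all genes, 3.05% in this direction. With time, 5 of the 9 rose in wild-type livers (Gnmt, Ahcy, Bhmt, Cth and Shmt1), where 13.8% of all genes rose and 27.7% passed in either direction, and 1 of the 9 rose in Rev-erbα-/- livers (Ahcy), where 8.79% of all genes rose and 8.67% fell. The wild-type rise of Bhmt passed in 2 and that of Cth in 7 of the 12 fits that leave out 1 mouse, and those of Gnmt, Ahcy and Shmt1 in all 12. In wild-type livers without mice 2 and 3, 1 of the 9 passed (Ahcy), and 11.9% of all genes. The median log2 fold change of the 9 was 0.33 at ZT8 and 0.10 at ZT20 between genotypes, and 0.43 in wild-type and 0.17 in Rev-erbα-/- livers between the times, while the median over all genes tested was within 0.01 of 0 in each comparison. The ZT8 and wild-type time medians include wild-type ZT8 mice 2 and 3. Without them the ZT8 effects ran from -0.38 (Ahcy) to 0.60 (Bhmt), negative in Ahcy, Cth, Sardh and Pemt and positive in the others. The time effects in wild-type livers then ran from -0.26 (Cbs) to 2.24 (Ahcy). Comparisons of genotype and of time share groups and are not independent of each other. With 3 mice against 3, an exact two-sided permutation test of a single gene cannot go below p = 0.1, which is why calls rest on the fit across all genes.

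Levels can be compared between these genes only per length of transcript, here as CPM per kb of all annotated exons joined. Gnmt, with 795 ± 179 (SD, n = 3) CPM per kb in wild-type livers at ZT8 and 1353 ± 103 at ZT20, and Mat1a, with 944 ± 147 and 865 ± 130, were the most abundant. The 2 overlapped at ZT8, and at ZT20 all 3 wild-type mice had more Gnmt per kb than Mat1a. At ZT8 Sardh followed with 174 ± 15 and Pemt with 105 ± 11, the range of which overlapped those of Bhmt and Cth. Sardh was at 198 ± 18 and Pemt at 122 ± 5 at ZT20. Bhmt (86.3 ± 44.6), Cth (81.7 ± 28.2), Cbs (68.1 ± 9.7) and Shmt1 (65.6 ± 3.3) did not differ beyond their spread in wild-type livers at ZT8. At ZT20 they were at 175 ± 47, 130 ± 6, 65.0 ± 5.1 and 88.6 ± 11.1 CPM per kb. The range of Bhmt then overlapped those of Sardh and Pemt, and the range of Cth overlapped that of Pemt. Reads assigned to Ahcy gave 13.8 ± 0.5 CPM per kb and those of Gm4737 171 ± 2 in wild-type livers at ZT8.

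The genes whose pattern over the 12 livers was most like that of Gnmt were sought by the root mean square difference of centred log2(CPM + 0.5) values among 14479 other genes. Suox, which oxidizes the sulphite left from cysteine, came first with 0.0893, where the spread of Gnmt around its own mean was 0.381. Als2cl, with 0.116, Ephx2, an epoxide hydrolase, and Mad2l2, with 0.125 each, were also among the closest. Suox was at 141.0, 106.6 and 95.3 CPM in wild-type and at 164.8, 169.4 and 151.1 CPM in Rev-erbα-/- livers at ZT8. The wild-type mice had the same order as with Gnmt, but Suox was picked for its likeness to Gnmt over these same livers. The shared order is therefore not a separate observation. The ranking included the wild-type livers at ZT8 with high Saa1. Of the other 8 genes of the cycle, Cth was the most like Gnmt (0.138, at rank 14) and Ahcy the least (0.944, at rank 14185).

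A wider list of 73 genes of one-carbon, sulphur and choline metabolism, also chosen with earlier results of these data known, was examined in the same fit. Of these, 70 were tested, while Phgdh and Gadl1 were too low and the symbol Sqor does not occur in the tables, which hold Sqrdl. At ZT8, 15 of the 70 were higher in Rev-erbα-/- livers and 0 lower, where 4.40% of all genes were called higher and 4.04% lower. At an unadjusted p under 0.05 edgeR gave 20 higher and 4 lower, and DESeq2 called 17 higher and 0 lower. Without wild-type mice 2 and 3, 4 of the 70 were called, namely Chka, Gldc and Ahcyl2 higher and Inmt lower. The median log2 fold change of the 70 was 0.099.

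The largest differences among the called genes of the wider list at ZT8 were in Chka and Gldc. Chka, the choline kinase that starts the route to phosphatidylcholine that runs beside PEMT, was at 18.8, 15.0 and 14.4 CPM in wild-type and at 97.1, 95.3 and 99.6 CPM in Rev-erbα-/- livers at ZT8, a 6.03-fold difference (adjusted p = 3.81e-10). The lowest Rev-erbα-/- liver was far above the highest wild-type liver. Gldc, the decarboxylase of the glycine cleavage system, was at 135.4, 107.3 and 93.5 and at 247.7, 283.8 and 312.6 CPM (2.51-fold, adjusted p = 0.000122). With wild-type mice 2 and 3 left out, the log2 fold changes of Chka and Gldc were 2.37 and 1.05, and both passed the test. Fpgs, which adds glutamates to folates and so keeps them in the cell, was at 99.5, 97.6 and 84.8 CPM in wild-type and at 142.3, 145.3 and 163.5 CPM in Rev-erbα-/- livers at ZT8 (1.60-fold, adjusted p = 0.000808). The genotypes did not overlap, as was so with Rev-erbα-/- higher in 13.2% of all genes, and without wild-type mice 2 and 3 the log2 fold change of Fpgs was 0.59 (adjusted p = 0.0540).

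Calls at ZT8 were spread over the branches of the list when wild-type mice 2 and 3 were included, as in the counts that follow. Of all genes tested, 4.40% were called higher in Rev-erbα-/- livers. In the choline and glycine branch, 5 of 12 genes were higher in Rev-erbα-/- livers (Gldc, Amt and Gcsh of glycine cleavage, Dmgdh, which makes sarcosine from dimethylglycine, and Agxt). In cysteine, taurine, sulphide and glutathione metabolism, 4 of 11 were higher, namely Cdo1, Suox, Ggct and Ethe1, the last a sulphur dioxygenase of mitochondria (1.83-fold, adjusted p = 0.0441). Ethe1 passed in 4 of the 12 fits that leave out 1 mouse, and without wild-type mice 2 and 3 its log2 fold change was 0.41 (adjusted p = 0.229). In methionine regeneration, 2 of 7 were higher, Bhmt2, a homocysteine methyltransferase (1.33-fold, adjusted p = 0.00712), and Ahcyl2. Of the folate genes 1 of 16 was higher (Fpgs), of the polyamine and salvage genes 1 of 9 (Sms, spermine synthase, at 1.42 to 1.75 and 2.25 to 3.74 CPM), and of the phosphatidylcholine route 2 of 6 (Chka and Cept1). Sms passed in 8 of the 12 fits that leave out 1 mouse, and its adjusted p was 0.288 without wild-type mice 2 and 3. Of the 7 other methyltransferases edgeR called 0, with 0 higher and 1 lower at an unadjusted p under 0.05, and DESeq2 called 0. Of the 2 serine synthesis genes tested, edgeR called 0, with 0 at an unadjusted p under 0.05, and DESeq2 called 0.

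**Figure D5:**
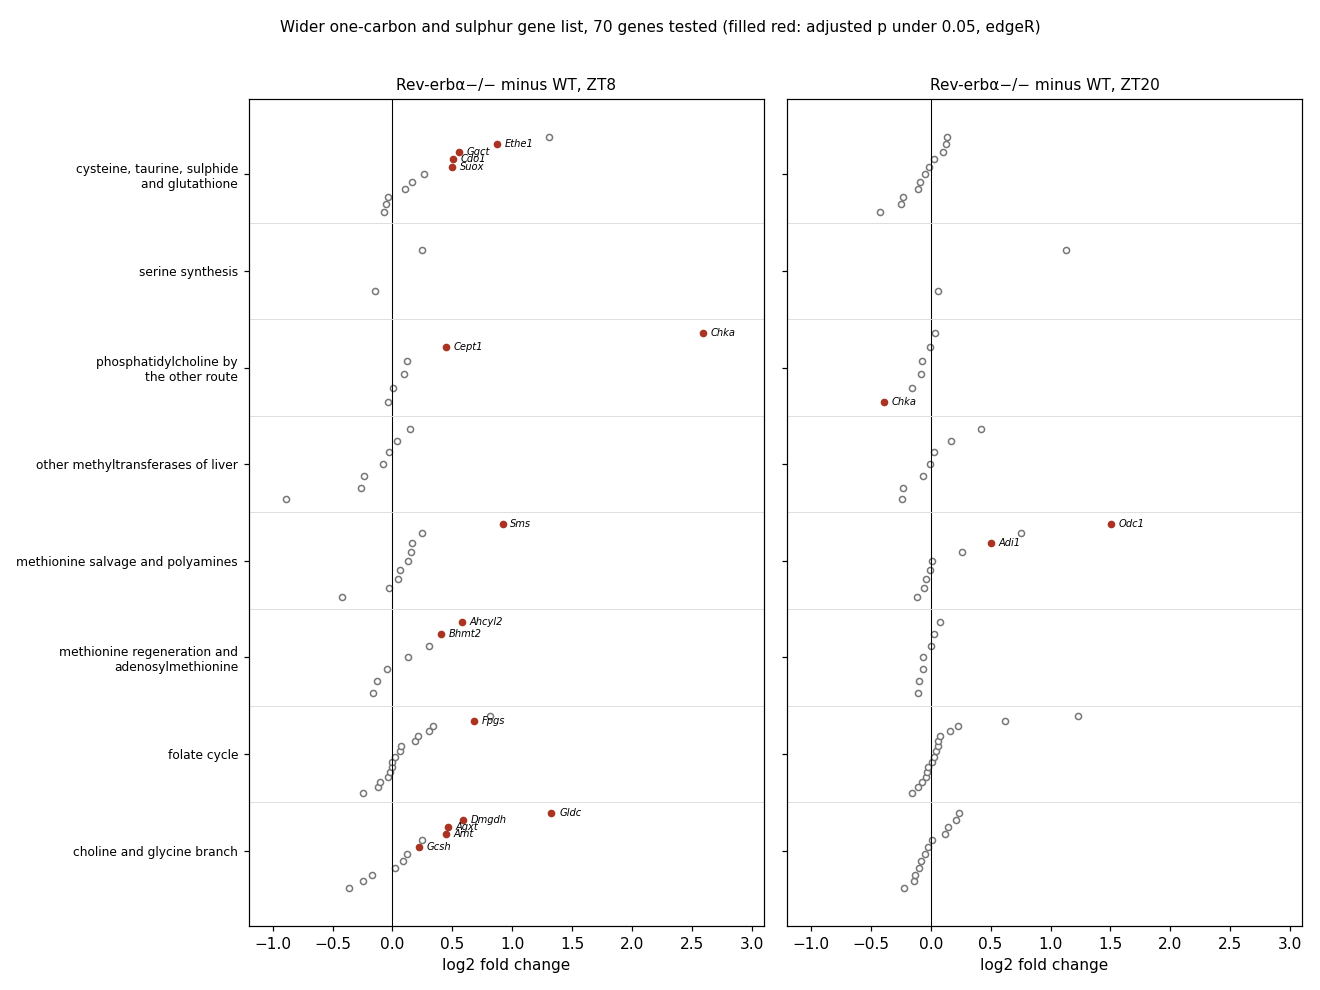
Fitted log2 fold changes of Rev-erbα-/- against wild-type livers for the 70 tested genes of the wider list, by branch of metabolism, at ZT8 (left) and ZT20 (right), with 1 point per gene and filled red, named points for an adjusted p under 0.05. At ZT8 all 15 called genes lie to the right of 0, led by Chka (2.59) and Gldc (1.33), and at ZT20 3 are called, Odc1 (1.50), Adi1 (0.50) and Chka (-0.39).

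At ZT20, 3 of the 70 (4.29%) passed between genotypes, near the 3.63% of all genes. Odc1, ornithine decarboxylase, which starts polyamine synthesis, was at 16.8, 20.6 and 19.2 CPM in wild-type and at 63.7, 51.1 and 45.6 CPM in Rev-erbα-/- livers (2.83-fold higher, adjusted p = 0.00104). Adi1, an enzyme of methionine salvage, was at 136.9, 145.7 and 144.5 and at 188.8, 200.1 and 215.2 CPM (1.41-fold higher, adjusted p = 0.00408). Chka was at 204.7, 189.8 and 184.0 CPM in wild-type and at 155.3, 155.1 and 131.9 CPM in Rev-erbα-/- livers (1.31-fold lower, adjusted p = 0.0291), and this call was lost in 6 of the 12 fits that leave out 1 mouse, namely any wild-type mouse or Rev-erbα-/- mouse 2 or 3 of ZT20, or Rev-erbα-/- mouse 2 of ZT8 (adjusted p of up to 0.117).

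In wild-type livers, 21 of the 70 genes rose from ZT8 to ZT20 and 9 fell, where 13.8% of all genes rose and 13.9% fell, with the largest changes in Chka (11.9-fold), Gldc (2.89-fold), Csad, which makes the precursor of taurine (2.88-fold), Ethe1 (2.85-fold) and Fpgs (2.10-fold). When wild-type mice 2 and 3 of ZT8 were left out, the log2 changes of Chka, Gldc, Ethe1 and Fpgs were 3.35, 1.25, 1.05 and 0.98 and passed the test, whereas that of Csad was 1.13 and did not (adjusted p = 0.219). In Rev-erbα-/- livers, 12 rose and 6 fell, where 8.79% and 8.67% of all genes did. The largest changes there were in Sdsl (1.79-fold), Gclc, the catalytic subunit of glutathione synthesis (1.72-fold), Odc1 (1.69-fold), Psph (1.69-fold) and Mpst (1.60-fold). In the same livers, Chka rose 1.52-fold and Fpgs 1.28-fold. Odc1 went the opposite ways. It fell 1.50-fold in wild-type livers with mice 2 and 3 of ZT8 included (adjusted p = 0.0399). Its wild-type levels at ZT8 were 30.0, 29.6 and 25.2 CPM in mice 1, 2 and 3. In Rev-erbα-/- livers Odc1 rose (adjusted p = 0.0154, and 0.0639 without Rev-erbα-/- mouse 2 of ZT8).

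Among the marker lists of other cell types, the genotypes did not overlap in the acinar list at ZT8 and in the neutrophil and lymphocyte lists at ZT20. Only 2 of the 6 acinar, 2 of the 5 neutrophil and 3 of the 5 lymphocyte genes passed the filter on low counts. In these lists, 2 acinar genes and 1 neutrophil gene had 0 counts in every liver. The Kupffer cell sum (5 of 6 genes in the tables) was 249 to 399 CPM in wild-type livers at ZT8 and 221 to 312 CPM in the other groups. The acinar sum was 26.6 to 29.5 CPM in wild-type and 44.9 to 60.6 CPM in Rev-erbα-/- livers at ZT8, without overlap, and 18.3 to 40.6 CPM at ZT20. Endothelial, stellate and bile duct markers summed to 265 to 325, 274 to 360 and 37.9 to 94.7 CPM, red cell markers to 112 to 288 CPM and adipocyte markers to 0 to 0.178 CPM over all livers. At ZT20, neutrophil markers summed to 1.30 to 6.71 CPM in wild-type and 0.420 to 0.889 CPM in Rev-erbα-/- livers, and they were at 0.571 to 2.15 CPM at ZT8. Lymphocyte markers summed to 2.55 to 2.79 CPM in wild-type livers at ZT20, above the 1.32 to 2.44 CPM of the other 9 livers. Within hepatocytes, the pericentral list summed to 12858 to 14323 CPM in wild-type and 11160 to 12112 CPM in Rev-erbα-/- livers at ZT8 and to 8584 to 9273 CPM at ZT20, and the periportal list to 4065 to 5529 and 3659 to 4955 CPM at the 2 times. The part of these differences in the results above was not tested.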

How the data were processed

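Poly(A) RNA of 12 livers was sequenced by the authors, who used TopHat for alignment to mm10 and HTSeq-count in its union mode for counting per gene name, without regard to strand and from an alignment quality of 10. The values they deposited are whole-number counts, not normalized, and reads that align to several places are not among them. Such alignments numbered 1.24 to 3.28 per counted read. The 9 genes, the wider list, the marker lists and the tests were chosen with earlier results of these data known. From the deposited counts, genes were kept with filterByExpr (edgeR 4.0.16, R 4.3.3), scaled by TMM and fitted as 4 group means over all 12 samples with the robust quasi-likelihood test, and p-values were adjusted by Benjamini-Hochberg over the 14488 genes tested in each of 5 contrasts, with a threshold of 0.05. DESeq2 1.42.0 was run as an alternative, where the study used version 1.6.3. Replicates are separate mice. Pairs of livers of a group differed far beyond counting noise (chi-square per degree of freedom 7.81 to 146), so that none was counted once. The fit was tested on simulated data, with the same spread in every gene, no outlying mice and changes larger than most of those reported here. That simulation does not show how well smaller changes are found.

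All 9 genes are named, and from the wider list up to 5 genes per contrast with the largest change among those past the threshold whose groups did not overlap, and the 5 genes most like Gnmt, except some genes whose results are not reported here and which the counts of the wider list leave out. Sequences and starts are from RefSeq (GRCm38.p6), and exon lengths and shared 75-base stretches from GENCODE annotation of the same build. Counting depth limits a level to about 3 counts, and this floor covers counting error only.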

Additional observations from a re-analysis of the deposited data

Results flagged for a closer look

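In 2 of the 9 genes the genotype effect at ZT8 and that at ZT20 differed by the interaction term of the edgeR fit. For Ahcy the effect at ZT8 minus that at ZT20 was 1.81 ± 0.14 on the log2 scale (adjusted p = 1.18e-06), and it was 0.22 with the copies summed (adjusted p = 0.428). For Shmt1 it was 0.66 ± 0.14 (adjusted p = 0.00882), and 0.57 without wild-type mice 2 and 3 of ZT8.

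The same difference was the largest among the genes of the wider list in Chka, at 2.98 ± 0.14 (adjusted p = 2.8e-09). It was -1.34 ± 0.26 in Odc1 (adjusted p = 0.0124), 1.29 ± 0.31 in Ethe1 (adjusted p = 0.0433), 1.21 ± 0.21 in Gldc (adjusted p = 0.00361) and 0.80 ± 0.20 in Ggct (adjusted p = 0.0254). Odc1 and Ggct missed the threshold without wild-type mice 2 and 3 of ZT8 (adjusted p = 0.0689 and 0.108). Of the 12 fits that leave out 1 mouse, Ethe1 passed in 3, namely those without wild-type mouse 1 or 3 of ZT8 or wild-type mouse 3 of ZT20, with an adjusted p of up to 0.108 in the others. Ggct, at 4.93 to 9.86 CPM over all livers, missed the threshold without wild-type mouse 2 or Rev-erbα-/- mouse 2 or 3 of ZT8, and without wild-type mouse 1 or 2 or Rev-erbα-/- mouse 2 or 3 of ZT20. In all, 11 of the 70 genes of the list passed, 9 with the higher and 2 with the lower effect at ZT8, and 5.88% of all genes tested did.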

How the results depend on the processing

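Leaving out each mouse in turn, the number of the 9 genes called ran from 1 to 6 for the genotype at ZT8 (3 with all mice), from 1 to 2 at ZT20 (1), from 2 to 3 for the difference of the effects (2), from 3 to 6 for time in wild-type (5) and from 1 to 3 for time in Rev-erbα-/- livers (1). In the wider list the corresponding ranges were 8 to 17 (15), 2 to 4 (3), 7 to 14 (11), 25 to 37 (30) and 13 to 21 (18). The 8 at ZT8 came without wild-type or without Rev-erbα-/- mouse 2 of ZT8, and the 7 without either of these, wild-type mouse 1 or 2 of ZT20 or Rev-erbα-/- mouse 2 of ZT20. At a threshold of 0.01, edgeR called 0 of the 9 at ZT8 (5 were at an unadjusted p under 0.05, and DESeq2 called 5 at a threshold of 0.05) and 3 for time in wild-type livers, and in the wider list 8 at ZT8, 6 for the difference of the effects and 11 for time in Rev-erbα-/- livers. DESeq2 called 5 of the 9 at ZT8, 3 at ZT20 and 2 for time in Rev-erbα-/- livers. With total reads in place of TMM, 3 were called for time in wild-type and 2 in Rev-erbα-/- livers. Without a filter on low counts, 2 were called at ZT20, 3 for time in wild-type and 2 in Rev-erbα-/- livers. With only the 6 samples compared in the fit, 1 was called at ZT8, 3 for time in wild-type and 3 in Rev-erbα-/- livers. Without wild-type ZT8 mice 2 and 3, edgeR and DESeq2 each called 0 of the 9 at ZT8 (3 at an unadjusted p under 0.05 by either), and edgeR called 2 at ZT20, 1 for the difference of the effects, 1 for time in wild-type and 3 in Rev-erbα-/- livers, and in the wider list 4, 5, 6 and 19 in the first 4 of these comparisons. The cause of these changes was not tested, beyond the fewer samples in the fits that leave mice out.

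Among the 9 genes and the named genes, direction reversed only for values with an adjusted p of 0.265 or more, under either setting. For Mat1a, the time difference in Rev-erbα-/- livers was -0.0016 with DESeq2, -0.00071 with RLE size factors, -0.029 with total reads and -0.0012 with a replicate block, and for Pemt the difference of the genotype effects was -0.029 with total reads and -0.00078 without a filter. Leaving out each mouse in turn, the ZT8 genotype effect ran from -0.060 to 0.17 for Mat1a, from -0.074 to 0.070 for Pemt and from -0.037 to 0.096 for Sardh, that at ZT20 from -0.083 to 0.044 for Sardh and from -0.040 to 0.019 for Pemt, and the difference of the effects from -0.0049 to 0.13 for Sardh and from -0.061 to 0.078 for Pemt. The time difference ran from -0.11 to 0.10 for Mat1a in Rev-erbα-/- livers and from -0.17 to 0.025 for Cbs in wild-type livers. Without wild-type ZT8 mice 2 and 3, the ZT8 genotype effect was -0.073 for Cth and -0.083 for Sardh, the difference of the effects was 0.13 for Mat1a, -0.036 for Cbs, -0.23 for Cth, -0.053 for Sardh and -0.14 for Pemt, and the time difference of Mat1a in wild-type livers was 0.13.

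Samples with the same number did not clearly deviate together (correlations of -0.095 to 0.10). These values show no pairing of the mice by number, but cannot exclude a weak one, since samples with different numbers were not correlated for comparison. With the replicate number as a block, the 9 genes gave 3, 1, 2, 5 and 1 calls in the 5 comparisons, as without it, but with Bhmt (1.33, adjusted p = 0.0217) in place of Ahcy (-0.37, adjusted p = 0.0513) at ZT8. The block gave 14, 3, 9, 27 and 17 calls in the wider list.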
